A study of Mus musculus with 81 samples.

Results

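Col4a1, Col4a2 and Col22a1 are 3 collagen genes of the 57010 genes counted in this series of laser-captured mouse hippocampal neurons. They were chosen by measured genotype differences: Col4a1 and Col4a2 in CA3 pyramidal neurons (PNs) and Col22a1 in CA1 PNs, in both cases in mice whose dams received the control diet. The genotype and diet values of those gene and population pairs are therefore given as a description without a test. Tests of the 3 genes are given only for the other populations and for the supplemented diet arm.

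All mice were males of about 6 months of age (MO) from a cross on a segregating C57Bl/6J Eicher and C3H/HeSnJ background. Ts65Dn (Ts) mice carry an extra copy of a segment of mouse chromosome 16 (Mmu16) and of a piece of chromosome 17 that has no counterpart on human chromosome 21, and their disomic littermates (2N) were the controls. Dams were fed 1.1 g/kg choline (ChN) or 5.0 g/kg choline (ChP) through gestation and lactation, and all offspring ate control chow after weaning. CA1 PNs, CA3 PNs and dentate gyrus granule cells (DGCs) were captured from Nissl-stained sections of the same 28 mice, which gave 81 libraries. The ChN arm held 6 2N and 5 Ts CA1 libraries, 6 and 6 CA3 libraries and 6 and 6 DGC libraries. The ChP arm held 7 2N and 9 Ts CA1 libraries, 7 and 7 CA3 libraries and 7 and 9 DGC libraries. The CA3 library of mouse 15-145 was labelled Ts and was counted here as 2N, the genotype on the other libraries of that mouse.

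Type IV collagen is the network-forming collagen of basement membranes, the thin sheets of matrix that lie under endothelium and around pericytes and astrocytic endfeet. The chains α1 and α2, encoded by Col4a1 and Col4a2, assemble as a trimer with α1 in excess, and this trimer is the widespread form, present in the wall of brain vessels. Pathogenic variants in either gene cause disease of small cerebral vessels. Collagen XXII, encoded by Col22a1, belongs to the FACIT group of collagens, which attach to other matrix structures rather than form fibrils, and is known from tissue junctions such as that between muscle and tendon. None of the 3 genes lies on a segment that is triplicated in Ts mice.

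Col4a1 (ENSMUSG00000031502) is a minus-strand gene of chromosome 8 (GRCm39, 11248423 to 11362826), and Col4a2 (ENSMUSG00000031503) lies head to head with it on the plus strand (11362471 to 11499287). Col22a1 (ENSMUSG00000079022) is a minus-strand gene of chromosome 15 (71667644 to 71906095). The RefSeq transcription starts of Col4a1 and Col4a2 lie 21 bases apart, so the divergent genes start within 1 stretch. The 30 bases at chr8:11362773-11362802, shown because they lie beside both starts, read as follows on the strand of each gene, with capitals at matches to CCAAT and CCCTCCCC on either strand.
Col4a2 strand: CCAATttgttggcgctgccCCCTCCCCtcg
Col4a1 strand: cgaGGGGAGGGggcagcgccaacaaATTGG
By the RefSeq starts, this site ends 3 bases upstream of Col4a2 and lies 24 bases downstream of the Col4a1 start, in the transcribed part of Col4a1. In the GENCODE annotation Col4a2 starts further upstream, and the site lies within the bodies of both genes. Over the 32851 promoter windows of the RefSeq table (GRCm38.p6, 250 bases before to 50 after the start, both strands), CCAAT occurred in 37.4% and CCCTCCCC in 10.8%, so neither match is rare. The letters TATAAA, in 13.6% of all windows, were in neither of the 2 windows. GGGCGG, in 35.7% of windows, occurred 1 time in the Col4a1 window and 3 times in the Col4a2 window. The canonical GENCODE transcripts overlap by 318 bases on opposite strands, and whether the counting used the strand was not stated, so a small part of the reads at the shared start could have been given to either gene.

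Library totals ran from 358355 to 4744036 expected counts with a median of 1105133. Excitatory and region markers matched the labels in CA3 PNs and DGCs, but in 6 CA1 libraries (mice 17-21 and 16-357 of the ChN arm and 15-336, 16-90, 15-199 and 16-272 of the ChP arm) the summed CA2 markers were above the summed CA1 markers. In the CA1 libraries of mice 17-154 and 16-272 and in the DGC library of mouse 16-273, which is also the shallowest, the mean log2 CPM of triplicated Mmu16 genes lay nearer to the other genotype. By their summed CPM the DGC library of mouse 16-273 (5363) lay in the range of its 2N group (5221 to 5479) and below every Ts library (7732 to 8369). The sum was 8929 in the CA1 library of mouse 17-154, within the Ts range of that arm (8606 to 8956). In that of mouse 16-272 it was 7186, above every 2N library of that arm (highest 6080). Values without the 7 CA1 libraries concerned, or without the DGC library of mouse 16-273, are given beside the tested differences of the 3 genes that use them.

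Col4a1 and Col4a2 were detected in every library of all 3 populations and were higher in PNs than in DGCs. In DGCs the counts were low, with 7 to 35 per library for Col4a1 (median 15) and 8 to 61 for Col4a2 (median 30). In CPM (counts scaled to equal library totals), the median of Col4a1 over all libraries of a population was 62.1 for CA1 PNs, 71.1 for CA3 PNs and 17.0 for DGCs, and that of Col4a2 was 82.3, 92.8 and 29.7. Per transcript length, on the TPM scale of the deposited tables, the 2 chains had near equal median levels in each population, with Col4a1 and Col4a2 at 16.1 and 14.3 (CA1), 25.2 and 24.7 (CA3) and 6.93 and 7.15 (DGCs). Within the 2N ChP mice, the Col4a1 libraries ran from 30.02 to 75.6 CPM with a median of 58.3 in CA1 PNs, from 32.7 to 70.3 with a median of 64.4 in CA3 PNs and from 12.1 to 39.1 with a median of 19.4 in DGCs. The 2 PN populations covered the same range, and the DGC range reached into it only through the library of mouse 16-273. With the mouse as a block, Col4a1 was 2.86-fold higher in CA1 PNs than in DGCs (LFC, the log2 fold change, 1.51 ± 0.19 SE, edgeR quasi-likelihood adjusted p = 1.9e-09) and 3.18-fold higher in CA3 PNs than in DGCs (LFC 1.67 ± 0.18, edgeR adjusted p = 3.0e-11), whereas the difference of CA1 from CA3 PNs was not resolved (LFC -0.16 ± 0.15, edgeR adjusted p = 0.517). Without the DGC library of mouse 16-273 the LFCs against DGCs were 1.70 and 1.85. Without the CA1 libraries that stand apart the LFC of CA1 PNs was 1.52 against DGCs and -0.16 against CA3 PNs.

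Col4a2 had the same order of populations. In the 2N ChP mice it lay at 43.0 to 118 CPM (median 64.4) in CA1 PNs, 49.6 to 96.2 (77.6) in CA3 PNs and 19.4 to 36.8 (30.7) in DGCs, so that every PN library was above every DGC library. It was 2.38-fold higher in CA1 PNs and 2.84-fold higher in CA3 PNs than in DGCs (LFC 1.25 ± 0.16 and 1.51 ± 0.16, edgeR adjusted p = 6.3e-09 and 8.3e-12), and the difference of CA1 from CA3 PNs did not pass (LFC -0.25 ± 0.14, edgeR adjusted p = 0.184). That last difference was -0.42 and passed without the CA1 libraries that stand apart (edgeR adjusted p = 0.019) and passed as well without the mouse 15-336 alone (edgeR adjusted p = 0.020). The LFC of CA1 PNs against DGCs was 1.07 without the CA1 libraries that stand apart, and without the DGC library of mouse 16-273 the LFCs against DGCs were 1.3002 (CA1) and 1.55 (CA3). Differences of this kind were common, since at an adjusted p under 0.05 the share of the 15054 genes tested that differed was 24.6% for CA1 against CA3 PNs, 33.0% for CA1 PNs against DGCs and 42.0% for CA3 PNs against DGCs. In captured tissue, more cells of a type and more RNA per cell cannot be told apart, and the captures held RNA of other cell types. In the 2N ChP mice the summed endothelial and mural markers had medians of 113 (CA1), 118 (CA3) and 68.0 CPM (DGCs), so that they too were higher in PNs, and the summed astrocyte markers 736, 2225 and 891 CPM. Their part in the population differences was not tested.

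**Figure D1:**
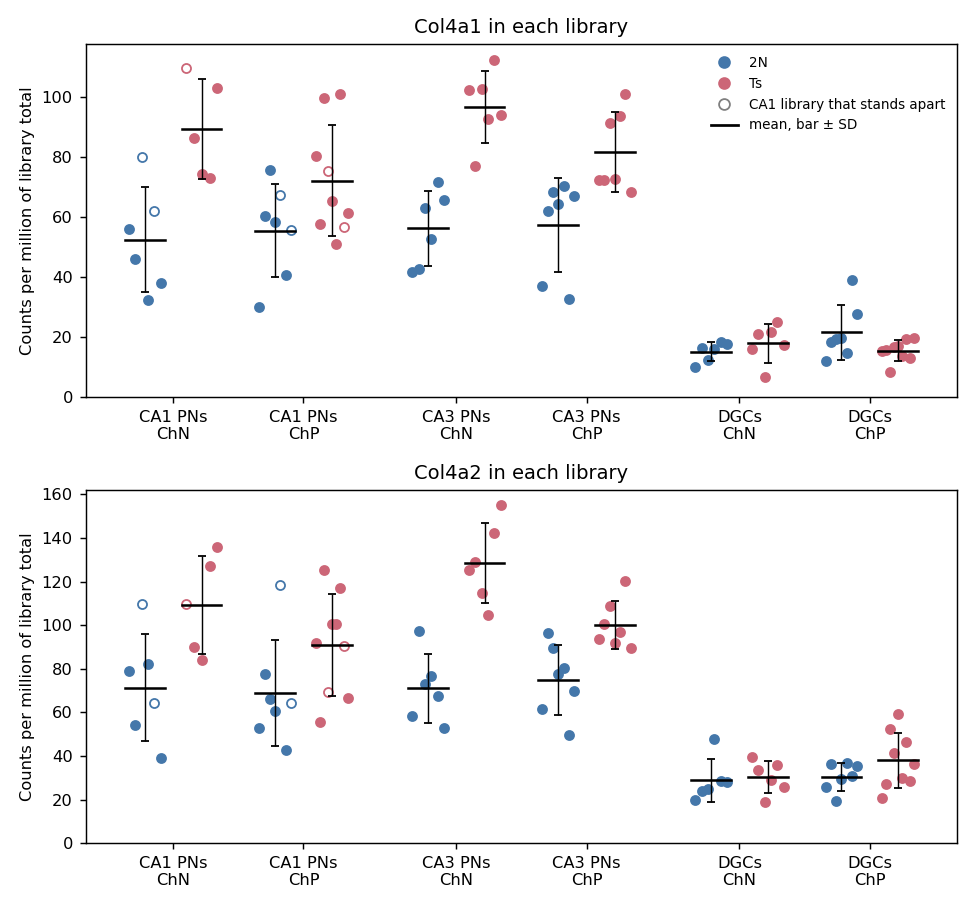
CPM of Col4a1 and Col4a2 in each library by population, diet and genotype, with the mean and SD of each group as a line and bar and the CA1 libraries that stand apart as open circles. Col4a1 in DGCs lies at or under 39.1 CPM in every group, and in CA3 PNs of the ChN arm the Ts libraries (77.0 to 112 CPM) lie above the 2N libraries (41.7 to 71.8 CPM).

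In CA3 PNs of the ChN arm, the comparison by which both genes were chosen, the 2N libraries had 41.7 to 71.8 CPM of Col4a1 (median 57.9) and the Ts libraries 77.0 to 112 (median 98.1). For Col4a2 the 2N libraries had 52.8 to 97.4 CPM (median 70.4) and the Ts libraries 105 to 155 (median 127). In CPM the groups did not overlap for either chain. The LFC of Ts against 2N was 0.82 ± 0.12 (1.76-fold) for Col4a1 and 0.83 ± 0.12 (1.77-fold) for Col4a2, and with the mouse 15-145 library taken as Ts, as labelled, it was 0.58 and 0.63. On the length scale, the median of Col4a1 was 16.8 TPM in 2N and 41.5 TPM in Ts, and that of Col4a2 was 21.5 and 42.3 TPM. The summed inhibitory neuron markers also differed in these libraries, at 139 to 365 CPM (median 269) in 2N and 129 to 164 CPM (median 153) in Ts (exact two-sided permutation p of the log2 sum = 0.011), with 6 of 8 markers lower in Ts at an unadjusted edgeR p under 0.05 (Gad1, Gad2, Slc32a1, Sst, Npy and Lhx6), and their part in the result was not tested. Of all genes tested in this comparison, 9.2% differed at an unadjusted p under 0.05, 4.9% were higher in Ts at that threshold and 0.528% were higher at an adjusted p under 0.05.

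The CA3 PNs of the ChP arm, from other mice, had no part in the choice. Col4a1 had 32.7 to 70.3 CPM (median 64.4) in the 7 2N libraries and 68.4 to 101 CPM (median 72.7) in the 7 Ts libraries. The groups met at their edge, and 6 of 7 Ts libraries lay above the highest 2N library. The LFC was 0.53 ± 0.14 (1.45-fold), with an unadjusted p = 5.46e-04 and an adjusted p = 0.149 over all genes in edgeR and p = 0.00117 in an exact two-sided permutation test of log2 CPM. Col4a2 had 49.6 to 96.2 CPM (median 77.6) in 2N and 89.5 to 120 CPM (median 96.7) in Ts, with 4 of 7 Ts libraries above the highest 2N library. Its LFC was 0.42 ± 0.11 (1.34-fold), with an unadjusted edgeR p = 5.98e-04, an adjusted p = 0.150 and an exact two-sided permutation p = 0.00641. Both chains were thus higher in Ts at the unadjusted threshold, at which 2.67% of the genes tested were called higher and 4.99% in either direction, and neither passed the correction over all genes, which 0.235% did in this direction. The unadjusted calls held with each of the 14 libraries left out in turn. On the length scale Col4a1 had 10.75 to 96.7 TPM (median 20.4) in 2N and 15.85 to 54.2 TPM (median 27.45) in Ts. Its group means were 30.5 and 32.3 TPM. The highest 2N value was that of mouse 15-336, where the length used for TPM was 903 bases. Col4a2 had 15.2 to 41.25 TPM (median 17.2) in 2N and 18.7 to 48.1 TPM (median 26.8) in Ts. On this scale the groups overlapped for both chains. In these libraries the summed fibroblast and meningeal markers, meant for cells that are another source of type IV collagen, were also higher in Ts. They had 11.8 to 19.0 CPM (median 12.9) against 5.69 to 15.1 CPM (median 10.2) in 2N, with 3 of 7 Ts libraries above every 2N library (exact two-sided permutation p of the log2 sum = 0.023). Of the 8 markers 3 could be tested and 1 was higher (Islr), while Dcn was at 0 in 73, Slc6a13 in 79 and Lum in 54 of all 81 libraries. Over all CA3 libraries the largest medians were those of Pdgfra and Islr (4.36 and 4.04 CPM), so the sum is a weak measure of such cells. In CA3 PNs of the ChN arm the same sum was 7.61 to 10.4 CPM (median 9.80) in 2N and 4.80 to 15.0 CPM (median 9.29) in Ts. Its part in the result was not tested.

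In CA1 PNs of the ChN arm, whose libraries were not used to choose the type IV chains but come from the same mice, the 6 2N libraries had 32.5 to 80.0 CPM of Col4a1 (median 51.0). The 5 Ts libraries had 73.1, 74.3, 86.3, 103 and 110 CPM. The groups overlapped, and 3 of 5 Ts libraries were above every 2N library. The overlap came from the 2N library of mouse 17-154 (80.0 CPM), the next highest 2N library being at 62.1 CPM. The triplicated Mmu16 sum of the library of mouse 17-154 lay within the Ts range, as given above. The LFC was 0.70 ± 0.22 (1.62-fold), with an unadjusted edgeR p = 0.0048, an adjusted p = 1.0 and an exact two-sided permutation p = 0.0195. For Col4a2 the 2N libraries had 39.2 to 110 CPM (median 71.5), the highest in mouse 17-154, and the Ts libraries had 84.0, 89.9, 110, 127 and 136 CPM, again with 3 of 5 above every 2N library, the lowest of these by less than the rounding. Its LFC was 0.55 ± 0.22 (1.46-fold), with an unadjusted edgeR p = 0.025 and an exact two-sided permutation p = 0.0411, and that call was lost with either of 2 of the 11 libraries left out (the Ts mice 17-157 and 17-173). Without the libraries that stand apart (4 against 4), the LFC rose to 0.95 for Col4a1 and 0.75 for Col4a2, in a fit that changed a second choice too, since with 8 libraries the filter on low counts could not be kept and every gene with a count was tested (edgeR adjusted p = 5.8e-05 and 1.0e-03). With all 11 libraries, dropping that filter alone gave adjusted p-values of 0.0487 and 0.281 in edgeR. Without the libraries that stand apart, the exact two-sided permutation tests gave p = 0.0286, the smallest that 4 against 4 allow, and p = 0.0571. At an unadjusted p under 0.05, 1.78% of the genes in this comparison were higher in Ts and 3.77% differed in either direction, and 0.00814% were higher and passed the correction. On the length scale the median of Col4a1 was 10.9 TPM in 2N and 20.9 TPM in Ts, and that of Col4a2 was 10.7 and 24.5 TPM.

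In CA1 PNs of the ChP arm Col4a1 had 30.02 to 75.6 CPM (median 58.3) in 2N and 51.1 to 101 CPM (median 65.3) in Ts, with 3 of 9 Ts libraries above the highest 2N library and 6 of 9 above the 2N median. Its LFC was 0.42 ± 0.18 (1.34-fold, unadjusted edgeR p = 0.026, adjusted p = 1.0, exact two-sided permutation p = 0.0535). Col4a2 had 43.0 to 118 CPM (median 64.4) in 2N, the highest in mouse 15-336, and 55.6 to 125 CPM (median 91.8) in Ts, with 8 of 9 Ts libraries above the 2N median. Its LFC was 0.42 ± 0.20 (1.34-fold, unadjusted edgeR p = 0.045, exact two-sided permutation p = 0.0532). Both were among the 2.14% of genes higher in Ts at the unadjusted threshold, of 3.6% called in either direction, and not among the 0.049% that passed the correction. The unadjusted call was lost with 4 of 16 libraries left out in turn for Col4a1 (mice 14-125 and 16-273 of 2N and 15-198 and 16-206 of Ts). For Col4a2 it was lost with 11 of 16 (these 4, mice 15-296, 15-334 and 16-90 of 2N and 14-90, 15-245, 15-36 and 16-272 of Ts), and also with DESeq2 and with scaling by library totals. Without the libraries that stand apart the LFC was 0.53 for Col4a1 and 0.66 for Col4a2 (unadjusted edgeR p = 0.027 and 0.0019, exact two-sided permutation p = 0.0732 and 0.0189). On the length scale the mean of Col4a1 was 15.2 TPM in 2N and 14.8 TPM in Ts (medians 14.0 and 17.0). That of Col4a2 was 12.4 and 17.6 TPM (medians 8.78 and 16.4).

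In DGCs, where the counts per library were low as given above, neither chain was called in either arm. In the ChN arm Col4a1 had 10.1 to 18.2 CPM (median 16.2) in 2N and 6.61 to 25.1 CPM (median 19.1) in Ts, and Col4a2 had 20.1 to 48.0 CPM (median 26.7) and 19.0 to 39.6 CPM (median 31.4), so the groups overlapped for both chains. The LFCs were 0.22 ± 0.25 and 0.08 ± 0.19 (edgeR adjusted p = 0.896 and 0.966, exact two-sided permutation p = 0.563 and 0.630). In the ChP arm Col4a1 had 12.1 to 39.1 CPM (median 19.4) in 2N and 8.53 to 19.6 CPM (median 15.9) in Ts, so that only 1 of 9 Ts libraries was above the 2N median. Its LFC was -0.38 ± 0.23 (edgeR adjusted p = 0.764, exact two-sided permutation p = 0.102), and -0.25 (edgeR adjusted p = 0.886) without mouse 16-273, which held the highest value on 14 counts. It was -0.49 and under the unadjusted threshold without the 2N mouse 14-125. Col4a2 had 19.4 to 36.8 CPM (median 30.7) in 2N and 21.0 to 59.2 CPM (median 36.3) in Ts (LFC 0.31 ± 0.18, edgeR adjusted p = 0.726, exact two-sided permutation p = 0.207). Its LFC was 0.31 without mouse 16-273, and 0.39 and 0.36 and under the unadjusted threshold without the Ts mouse 14-90 or 15-140. At the same threshold 7.6% of all genes differed between genotypes in DGCs of the ChP arm and 8.5% in those of the ChN arm, of which those higher in Ts were 3.95% and 4.55% of the genes tested.

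**Figure D2:**
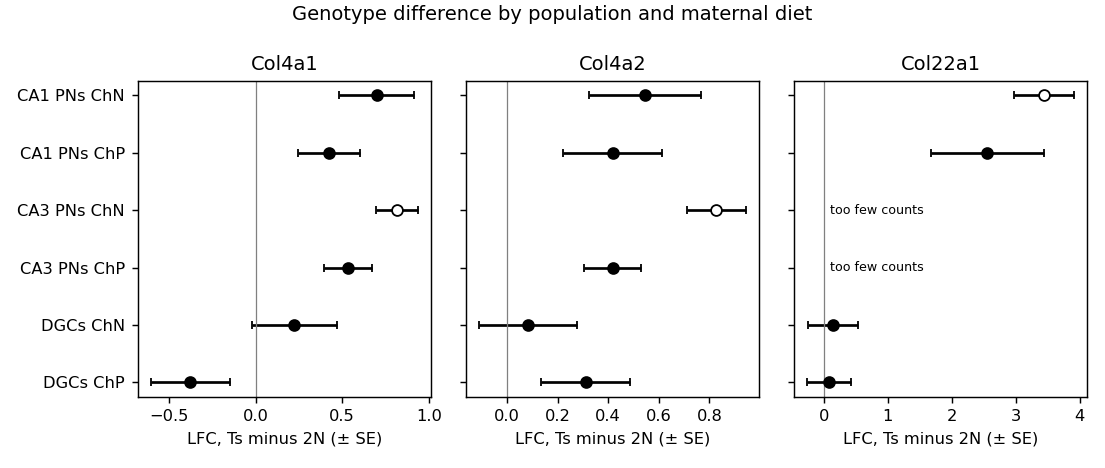
LFC of Ts against 2N with its SE for the 3 genes by population and diet, from edgeR, with the comparisons that chose the genes as open circles and the CA3 values of Col22a1 left out for too few counts. Col4a1 and Col4a2 are above 0 in CA1 and CA3 PNs of both arms (0.42 to 0.83), and in DGCs their values run from -0.38 to 0.31.

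The genotype difference of Col4a1 was set against itself between populations within the ChP arm. The LFC of Ts against 2N was higher by 0.82 ± 0.24 in CA1 PNs than in DGCs (edgeR interaction, adjusted p = 0.704) and by 0.91 ± 0.24 in CA3 PNs than in DGCs (adjusted p = 0.622), with the mouse as a block. Neither passed the correction over all genes, and both were under the unadjusted threshold. At an unadjusted p under 0.05, 4.25% and 3.93% of the 18435 genes tested differed in the same contrasts, and 3.52% between CA1 and CA3 PNs, where Col4a1 did not. Within each mouse, the log2 CPM of Col4a1 in CA1 PNs was above that in DGCs by 1.46 ± 0.70 in 2N (SD, n = 7) and by 2.26 ± 0.53 in Ts (n = 9), and the exact two-sided permutation test of the difference gave p = 0.0124. For CA3 PNs against DGCs the values were 1.60 ± 0.76 and 2.38 ± 0.29 (n = 7 each, exact two-sided permutation p = 0.0076). The ranges overlapped, with 4 of 9 and 4 of 7 Ts mice above the highest 2N mouse. The 2N mouse 16-273 had the lowest values, 0.169 and 0.017, and without its DGC library the interactions were 0.64 and 0.73, both with an adjusted p of 1.0, and the exact two-sided permutation tests of the per-mouse differences gave p = 0.0368 and 0.0111. Without the CA1 libraries that stand apart the CA1 interaction was 0.80 (edgeR adjusted p = 0.657). For Col4a2 such a difference was not detected, with interactions above the unadjusted threshold in edgeR and per-mouse differences of 0.18 and 0.20 (exact two-sided permutation p = 0.443 and 0.435), which were 0.069 and 0.112 without the DGC library of mouse 16-273 (p = 0.754 and 0.670) and 0.24 for CA1 PNs without the CA1 libraries that stand apart (p = 0.375). These contrasts share their DGC libraries and are not independent of each other. In those DGC libraries 7 of 13 marker sums also differed between genotypes at an exact two-sided permutation p under 0.05, and their part in the result was not tested. The CA2 markers had 142 to 230 CPM (median 194) in 2N and 216 to 297 CPM (median 252) in Ts, with 8 of 9 Ts libraries above every 2N library, and the inhibitory neuron markers 194 to 286 CPM (median 243) and 258 to 361 CPM (median 310), with 7 of 9. Of 6 CA2 markers tested, 2 were higher at an unadjusted edgeR p under 0.05, Rgs14 and Pcp4. Pcp4 is itself triplicated in Ts mice, so the CA2 sum is not free of gene dosage. Medians were also higher in Ts for astrocyte (891 in 2N and 1070 CPM in Ts), microglia (48.5 and 62.8 CPM) and CA3 markers (131 and 152 CPM), and lower for granule cell (2376 and 2059 CPM) and CA1 markers (51.7 and 41.4 CPM).

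**Figure D3:**
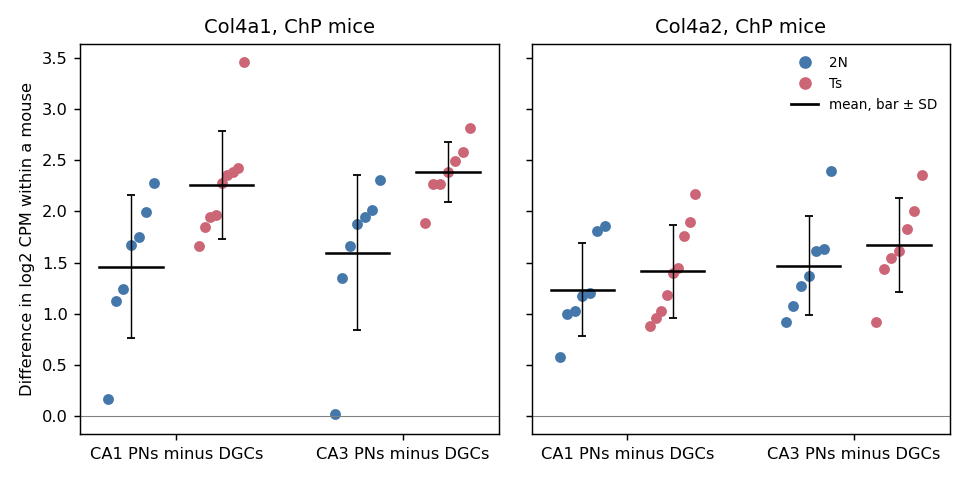
Difference of log2 CPM within each ChP mouse, CA1 PNs minus DGCs and CA3 PNs minus DGCs, for Col4a1 and Col4a2 by genotype, with the group mean and SD. For Col4a1 the Ts means are 2.26 and 2.38 against 1.46 and 1.60 in 2N, and the 2N mouse 16-273 is the lowest at 0.169 and 0.017.

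Vessel cells are a main source of type IV collagen in brain, and the RNA of those cells in the captures was measured with a list of 27 markers, 15 of endothelium and 12 of mural cells. Together they made up 48.97 to 145 CPM in CA1, 80.0 to 147 CPM in CA3 and 38.8 to 103 CPM in DGC libraries. Flt1, a receptor for vascular endothelial growth factor, was detected in all 81 libraries, with median CPM of 12.7 (CA1), 14.5 (CA3) and 7.25 (DGCs), while Cldn5, the claudin of endothelial tight junctions, was at 0 in 12 libraries. The smooth muscle markers Acta2 and Tagln were at 0 in 70 and 59 of the 81 libraries, and the pericyte marker Higd1b in 72. In Ts against 2N the mean log2 CPM of the list differed by -0.016 in CA1 PNs of the ChP arm (exact two-sided permutation p = 0.861), by -0.065 in those of the ChN arm (p = 0.684), by -0.138 in CA3 PNs of the ChP arm (p = 0.068), by 0.0105 in those of the ChN arm (p = 0.929), and by 0.109 and 0.082 in DGCs (p = 0.145 and 0.242). Without the CA1 libraries that stand apart the CA1 values were -0.060 in the ChP and -0.138 in the ChN arm (exact two-sided permutation p = 0.495 and 0.0857), and without mouse 16-273 the DGC value of the ChP arm was 0.138 (p = 0.0789). Of the single markers tested in CA3 PNs, 0 of 18 were higher and 1 was lower in Ts in the ChP arm (Notch3), and 1 of 19 was higher (Esam) and 1 lower (Pdgfrb) in the ChN arm, at an unadjusted edgeR p under 0.05. In CA1 PNs the counts were 0 higher and 0 lower of 20 in the ChP arm and of 12 in the ChN arm. Over the 6 genotype comparisons 3.19% of 94 tests of these markers were called, against 6.29% of the 81682 tests of all genes. Many of the markers are near 0, so these counts rest on the better detected ones. With the marker mean as a covariate, the LFC of Col4a1 was 0.65 in CA3 PNs and 0.44 in CA1 PNs of the ChP arm and 0.82 and 0.71 in those of the ChN arm, and that of Col4a2 was 0.48, 0.43, 0.83 and 0.54. The part of vessel RNA in the type IV values was not otherwise tested. In DGCs of the ChP arm the covariate took Col4a1 to -0.53 (edgeR adjusted p = 0.582), under the unadjusted threshold.

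**Figure D4:**
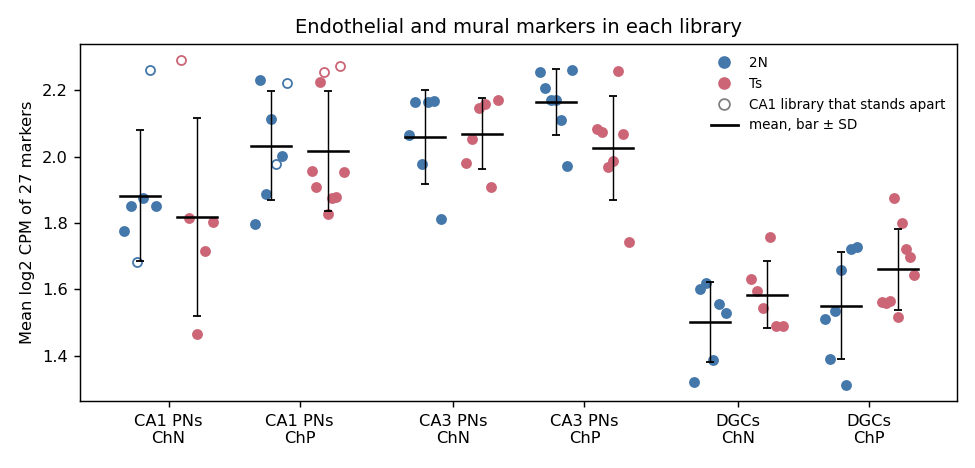
Mean log2 CPM of the 27 endothelial and mural markers in each library by population, diet and genotype, with the group mean and SD. The Ts and 2N libraries overlap in every population and diet, and in CA3 PNs of the ChP arm the Ts mean is 2.03 against 2.16 in 2N.

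The 2 chains were also set against each other, since they are products of a shared start region and of 1 trimer. The log2 ratio of Col4a1 to Col4a2 did not differ detectably between genotypes in CA1 PNs, in CA3 PNs of the ChP arm or in DGCs of the ChN arm (differences of -0.02 to 0.14, exact two-sided permutation p from 0.36 to 0.90, and in CA1 PNs -0.12 and 0.16 in the ChP and ChN arm without the libraries that stand apart). In CA3 PNs of the ChN arm, where both chains were chosen, it differed by -0.07, given without a test. In DGCs of the ChP arm the Ts mean was -1.17 ± 0.58 (SD, n = 9) and the 2N mean -0.53 ± 0.57 (n = 7), which differ by -0.64 with an exact two-sided permutation p = 0.0421 that did not hold with any 1 of 10 of the 16 libraries left out, mouse 16-273 among them (-0.50, p = 0.1001). Across libraries of 1 population, after the group means were subtracted, Pearson's r between the 2 genes was 0.584 in CA1 PNs (27 libraries), 0.399 in CA3 PNs (26) and 0.275 in DGCs (28). These are descriptions of libraries that share their depth and capture.

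Col22a1 was far less abundant than the type IV chains, and its order of populations was another one. Its median was 7.66 CPM in DGCs, 3.09 CPM in CA1 PNs and 0 in CA3 PNs, or 1.15, 0.30 and 0 TPM per transcript length. These medians are over both genotypes and diets. In the Ts ChN mice, whose CA1 libraries entered the choice, the median was 13.8 CPM in CA1 PNs and 6.93 CPM in DGCs. In CA3 PNs Col22a1 had 8 counts in all, and 19 of 26 libraries were at 0. In the 2N ChP mice the DGC libraries had 1.08 to 14.7 CPM (median 8.61), the CA1 libraries 0 to 3.08 CPM (median 1.10) and all 7 CA3 libraries 0. Over these CA3 libraries a count of 0 allows up to 0.298 CPM (3 counts of the group total, counting error only), so that the pooled level was at least 30.4-fold higher in DGCs and at least 3.59-fold higher in CA1 PNs, the latter from 7 counts. Without the libraries that stand apart these bounds were 31.2-fold and 5.29-fold. DGCs were 6.68-fold higher than CA1 PNs (LFC of CA1 against DGCs -2.74 ± 0.66, edgeR adjusted p = 8.0e-04), and that LFC was -1.89 (edgeR adjusted p = 0.033) without the CA1 libraries that stand apart and -2.65 (adjusted p = 0.0023) without the DGC library of mouse 16-273. In the Ts ChP mice it was -0.61 and did not pass (edgeR adjusted p = 0.316).

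**Figure D5:**
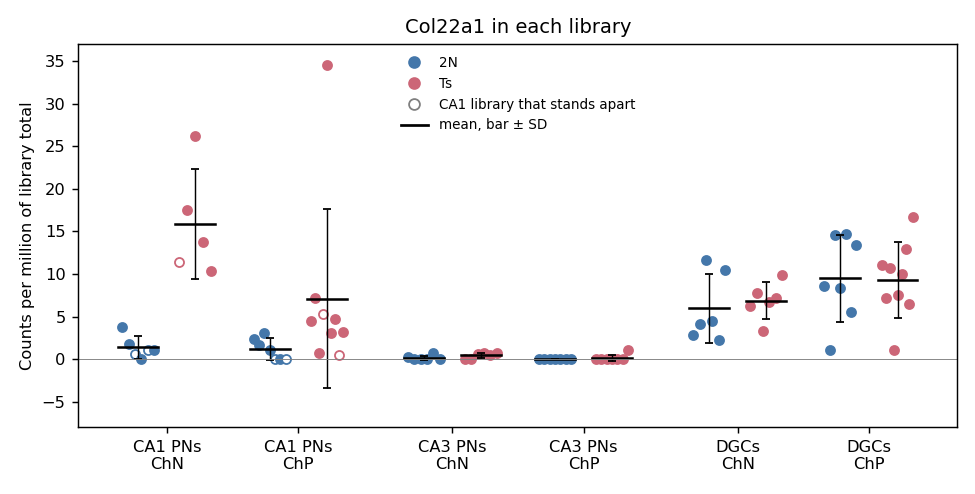
CPM of Col22a1 in each library by population, diet and genotype, with the group mean and SD and the CA1 libraries that stand apart as open circles. In CA1 PNs the 5 Ts libraries of the ChN arm (10.4 to 26.2 CPM) lie above all 2N libraries (0 to 3.81 CPM), and in the ChP arm the Ts library of mouse 15-245 stands alone at 34.5 CPM.

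In CA1 PNs of the ChN arm, where Col22a1 was chosen, the 2N libraries had 0 to 3.81 CPM (median 1.04, 8 counts in all). The Ts libraries had 10.4, 11.4, 13.8, 17.5 and 26.2 CPM (99 counts in all). The groups did not overlap, and the LFC was 3.44 ± 0.47 (10.9-fold), and 3.30 without the libraries that stand apart. The share of all genes whose groups did not overlap was not counted, for this or the other comparisons. The CA1 PNs of the ChP arm, which come from other mice, had 0 to 3.08 CPM in 2N (7 counts, with 3 of 7 libraries at 0). The 9 Ts libraries ran from 0.521 to 34.5 CPM (median 4.53, 75 counts), with 7 of 9 above the highest 2N library, of which mice 15-36 and 17-03 (3.098 and 3.139 CPM from 2 and 4 counts) exceeded it (3.085 CPM from 2 counts) by far less than counting error. The lowest was that of mouse 16-272, which stands apart, and the highest that of mouse 15-245, more than any of the other 8, which reached 7.21 CPM. The LFC was 2.56 ± 0.89 (5.88-fold, unadjusted edgeR p = 0.0098, adjusted p = 1.0), and the exact two-sided permutation test gave p = 0.0185. Without mouse 15-245 the LFC was 1.66 and still under the unadjusted threshold. Without the libraries that stand apart it was 2.296 (p = 0.047), and the exact two-sided permutation p was 0.0606. The unadjusted call held with each of the 16 libraries left out in turn. In these CA1 comparisons 1.78% (ChN) and 2.14% (ChP) of the genes tested were higher in Ts at an unadjusted edgeR p under 0.05. The shares higher and past the correction were 0.00814% and 0.049%.

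In DGCs, where Col22a1 is highest in 2N mice, the genotypes were alike in range. It had 2.28 to 11.7 CPM (median 4.27) in 2N and 3.30 to 9.91 CPM (median 6.93) in Ts of the ChN arm, and 1.08 to 14.7 CPM (median 8.61) and 1.13 to 16.7 CPM (median 10.1) in the ChP arm. The LFCs were 0.14 ± 0.39 and 0.08 ± 0.34 (edgeR adjusted p = 0.973 and 0.984, exact two-sided permutation p = 0.418 and 0.934), the latter 0.038 without mouse 16-273. The genotype LFC was higher in CA1 PNs than in DGCs by 2.11 ± 0.88 in the ChP arm (unadjusted edgeR interaction p = 0.021, adjusted p = 1.0), but by 1.21 and above the unadjusted threshold without the CA1 libraries that stand apart, and the per-mouse test did not pass (difference 1.22, exact two-sided permutation p = 0.106, and 0.55 with p = 0.501 without the CA1 libraries that stand apart). Without the DGC library of mouse 16-273 the interaction was 2.03 and the per-mouse difference 1.19 (exact two-sided permutation p = 0.148). In CA3 PNs the counts (2 and 5 in 2N and Ts of the ChN arm, 0 and 1 of the ChP arm) did not allow a fold.

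Maternal diet was compared within genotype, and no tested value of the 3 genes differed at an unadjusted p under 0.05. The LFC of ChP against ChN for Col4a1 was 0.03 in 2N and -0.27 ± 0.20 in Ts CA1 PNs and 0.40 ± 0.25 in 2N and -0.20 in Ts DGCs (edgeR adjusted p from 0.919 to 1.0). For Col4a2 it was -0.08 and -0.23 in 2N and Ts CA1 PNs and 0.06 and 0.29 ± 0.17 in DGCs, and for Col22a1 it was 0.55 ± 0.39 and 0.49 ± 0.34 in DGCs, again with adjusted p from 0.919 to 1.0. Over all genes 3.27% and 3.05% were called in 2N and Ts CA1 PNs and 5.82% and 3.81% in 2N and Ts DGCs. Without the CA1 libraries that stand apart the CA1 values were 0.26 and -0.16 for Col4a1 and -0.097 and -0.19 for Col4a2 in 2N and Ts. Without the DGC library of mouse 16-273 the 2N DGC values were 0.29 for Col4a1, 0.078 for Col4a2 and 0.61 for Col22a1. In the pairs used for the choice, as a description, Col22a1 was lower in ChP by an LFC of -1.19 ± 0.54 in Ts CA1 PNs and -0.28 ± 1.07 in 2N CA1 PNs (-1.06 and -0.055 without the libraries that stand apart). There, Col4a1 and Col4a2 had LFCs of -0.22 ± 0.13 and -0.33 ± 0.11 in Ts CA3 PNs, and 0.05 and 0.07 in 2N CA3 PNs. The diet arms hold different mice, and any difference in handling between the arms cannot be told apart from diet.

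The other 4 type IV chains, Col4a3 to Col4a6, were at 0 in 65, 72, 59 and 77 of the 81 libraries, so most of the type IV collagen RNA detected was that of α1 and α2. The highest value of the other chains was 6.22 TPM of Col4a3, from 3 counts in the CA1 library of mouse 17-21, beside 9.97 TPM of Col4a1. Of 18 basement membrane partners (laminins, nidogens, perlecan and others), 1 of 13 tested passed the correction in Ts CA3 PNs of the ChP arm. This was Sparc, a matricellular protein that binds type IV collagen, with 16.1 ± 4.34 CPM in 2N and 30.3 ± 10.1 CPM in Ts (SD, n = 7 each, LFC 0.88 ± 0.20, edgeR adjusted p = 0.0226) and 4 of 7 Ts libraries above every 2N library. In CA3 PNs of the ChN arm its LFC was 0.26 ± 0.20 (edgeR adjusted p = 0.764). In the CA3 libraries of the ChP arm the fibroblast and meningeal marker sum, which rests on few markers as given above, was also higher in Ts (median 12.9 against 10.2 CPM). Its part in the Sparc call was not tested. Among partners in the ChN arm, 1 of 13 was higher and 1 lower in CA3 PNs at an unadjusted p under 0.05, Col15a1 (LFC 1.70) and the laminin chain gene Lama5 (LFC -1.61). In CA1 PNs 0 were higher, 0 of 10 in the ChP arm and 1 of 6 in the ChN arm were lower (Lamb2, LFC -1.15). Lama2, encoding the laminin α2 chain, was higher in Ts DGCs of both arms (LFC 0.81 and 0.55), and in the ChN arm all 6 Ts libraries (18.8 ± 1.03 CPM) were above every 2N library (12.7 ± 3.61 CPM), although neither value passed the correction (edgeR adjusted p = 0.288 and 0.501). In these DGCs of the ChN arm the CA2 marker sum was also higher in Ts (median 200.5 CPM in 2N and 326 CPM in Ts) and the CA1 marker sum lower (46.4 and 35.2 CPM), and their part in the calls made there was not tested. The CA2 markers called higher there were again Rgs14 and the triplicated Pcp4. Agrn, encoding agrin, was lower in Ts DGCs of the ChP arm (LFC -0.22). In those libraries 7 of 13 marker sums differed between genotypes, as given above, and their part in this call was not tested. Over the 6 comparisons 11.9% of 59 tests of partners were called, against 6.29% of the tests of all genes.

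Of 20 collagen and basement membrane receptors, the collagen-binding receptor kinase Ddr2 passed the correction in CA3 PNs of the ChN arm, with 2.79 ± 1.21 CPM in 2N and 11.2 ± 4.67 CPM in Ts (SD, n = 6 each, LFC 1.93 ± 0.34, edgeR adjusted p = 4.6e-04), and no overlap between the groups. In the ChP arm its LFC in CA3 PNs was 0.49 ± 0.47 (edgeR adjusted p = 0.999). Itga7, encoding a laminin-binding integrin chain, was higher in Ts CA3 PNs of the ChN arm (LFC 0.45 ± 0.12, all 6 Ts libraries above every 2N library) and of the ChP arm (LFC 0.48 ± 0.14) and in DGCs of the ChN arm (LFC 0.42 ± 0.13) at the unadjusted threshold. In CA1 PNs 0 of 15 receptors in the ChP arm and 0 of 13 in the ChN arm were called in edgeR. Lower in Ts were Itga11, a collagen-binding integrin chain, in DGCs of the ChP arm (LFC -0.90, edgeR adjusted p = 0.055) and the collagen receptor kinase Ddr1 in CA3 PNs of the ChP arm (-0.53) and DGCs of the ChN arm (-0.37), and Itgav was higher in DGCs of the ChN arm (0.36). Calls made up 9.2% of 87 tests of receptors and 18.8% of 69 tests of proteases and inhibitors over the 6 comparisons, beside the 6.29% of all genes. The share of proteases and inhibitors includes the calls of the triplicated gene Adamts1, and a share without them was not computed. The lists were chosen with earlier results of these data known. Of 20 matrix proteases and inhibitors, Adamts1, itself in the triplicated segment, was higher in Ts CA3 PNs (LFC 1.07 in the ChN and 0.77 in the ChP arm) and Ts DGCs (0.69 and 0.66). The metalloproteinase inhibitor Timp2 was lower in Ts CA3 PNs of both arms (LFC -0.64 and -0.91) and higher in Ts DGCs of the ChN arm (0.74), all at an unadjusted p under 0.05 and none past the correction. Of collagen synthesis and cross-linking genes there were 3 calls over the 6 comparisons, 3.12% of 96 tests (Loxl1 higher and P4hb lower in CA3 PNs of the ChN arm, Colgalt1 lower in DGCs of the ChP arm) among 14 to 18 genes tested in each. Of the other FACIT genes, Col19a1 alone was called, in 1 of 16 tests over the 6 comparisons (6.25%), in Ts DGCs of the ChP arm (13.9 ± 5.87 against 5.56 ± 3.36 CPM, LFC 1.20 ± 0.33, edgeR adjusted p = 0.084). Of 27 other collagen genes, 3 of 42 tests (7.14%) were called, a share near that of all genes. These were Col6a4 in DGCs of the ChP arm (LFC 2.37) and Col5a1 and Col11a2 in DGCs of the ChN arm (1.06 and 0.96). Of 22 genes of TGF-beta signalling, which drives matrix gene expression, 8 calls over the 6 comparisons (7.84% of 102 tests) went both ways, with Smad3 higher in CA3 PNs of the ChN arm (LFC 0.49) and Tgfbr2 lower in CA1 PNs of the ChN arm (LFC -1.78) among them. As given above, 7 of 13 marker sums differed between genotypes in DGCs of the ChP arm, and those of CA1 and CA2 markers in the ChN arm. In CA3 PNs the inhibitory neuron sum differed in the ChN arm and the fibroblast and meningeal sum in the ChP arm. Their part in the calls of these lists was not tested.

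The 3 genes were also placed among their neighbours and among genes of like pattern. Within 500 kb of a member lie 52 annotated genes, and 8 to 10 of them were tested in each genotype comparison. Ankrd10, which lies 162293 bases from Col4a2 with other genes between, was higher in Ts CA3 PNs of the ChN arm (LFC 0.54 ± 0.15, edgeR adjusted p = 0.0656), but its LFC was 0.06 in the ChP arm, where no neighbour was called in CA1 or CA3 PNs at an unadjusted p under 0.05. The other neighbours called at that threshold were Kcnk9 in DGCs of the ChN arm (LFC 0.30) and Irs2 in DGCs of the ChP arm (LFC -0.23), and Ankrd10 was called in CA1 PNs of the ChN arm too (0.37). These were 4 of 51 tests of neighbours (7.84%), a share near the 6.29% of all genes. By Pearson's r of log2 CPM over the 81 libraries with group means subtracted, the 5 genes most like Col4a1 among 12044 were Ndst1, Myo18a, Hectd4, Trpm4 and Abca2 (r from 0.470 to 0.497). For Col4a2 they were Madd, R3hdm4, Extl3, Myo18a and Golga7b (r from 0.451 to 0.501), and the 2 chains had r = 0.421 with each other, rank 22 from either side. The 10 vascular markers above the level minimum had r from -0.14 to 0.277 with Col4a1 (highest for Kdr) and from -0.144 (Flt1) to 0.192 with Col4a2. For the sparse counts of Col22a1 no gene is singled out. These r are descriptions over libraries that share depth and mice.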

How the data were processed

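The deposited tables held expected counts and, from the authors' RSEM runs, TPM values per gene for each library. Per the labels and the study's methods, the authors checked reads with FastQC 0.11.9, trimmed them with Trimmomatic 0.39 where adapters or quality called for it, aligned them with STAR to GRCm39, took measures of the alignments with Picard 2.26.2 and estimated counts per gene with RSEM; the strand setting was not given in the sources used here. The study's model adjusted for RNA concentration and read-quality percentages, whose values per library were not used here. Expected counts were rounded (0.784% of all and 2.82% of those above 0 were not whole within 1e-06), since fragments shared between transcripts or genes were split by estimate. Genes above 0.1 CPM in at least 10 libraries of a fit were tested with edgeR 4.0.16 (R 4.3.3, limma 3.58.1, TMM, quasi-likelihood, Benjamini-Hochberg) within population and diet. Population and interaction fits carried the mouse as a block, since the labels give the same animals in the 3 populations. Over 7647 genes, the median residual r of same-mouse libraries was 0.091 to 0.131 against -0.025 to -0.010 for other mice. Single values used exact two-sided permutation tests of log2 CPM (prior count 2). Symbols matched 56310 of 57010 genes, and 0 columns lacked a sample. Alternatives were DESeq2 1.42.0, limma-voom, other scaling and filters, pooled diets, the vascular covariate and each mouse left out. Figures used matplotlib 3.10.9. Scripts were tested on simulated data. Named genes were the 3 members, up to 3 higher and 3 lower genes of each list at an unadjusted p under 0.05 (a selection is printed), neighbours within 500 kb and the 5 genes of highest r. The members and lists were chosen with earlier results of these data known. Promoter sequence came from RefSeq, which matched 2 of 3 members.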

Additional observations from a re-analysis of the deposited data

Results flagged for a closer look

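Among 56 groups of 5 to 9 libraries, 4 held a library far from the others, where chance gives about 1 in 20 groups. The DGC library of the 2N ChN mouse 17-172 had 48.03 CPM of Col4a2 against 20.11 to 28.51 in the other 5. The CA1 library of the Ts ChP mouse 15-245 had 34.52 CPM of Col22a1 against 0.5211 to 7.205 in the other 8. The CA1 library of the 2N ChN mouse 17-21, which holds CA2 markers, had a vascular marker mean of 2.261 against 1.684 to 1.876. In the CA1 library of the 2N ChN mouse 17-172 the log2 ratio of Col4a1 to Col4a2 was -1.3 against -0.4826 to -0.03692.

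Genotype differences that themselves differed between populations of the ChP arm, by an edgeR interaction at an unadjusted p under 0.05, were those of Col4a1 in CA1 PNs against DGCs (0.82) and in CA3 PNs against DGCs (0.91) and that of Col22a1 in CA1 PNs against DGCs (2.11). None passed the correction over all genes, and that of Col22a1 was 1.21 and above the unadjusted threshold without the CA1 libraries that stand apart.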

How the results depend on the processing

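Outside the fits with 1 library left out, 286 values kept their direction and side of the threshold. There 6 newly passed, 1 no longer passed, 1 untested value moved and 5 changed sign. With 1 library left out, 379 values were kept, 4 newly passed, 10 no longer passed and 27 changed sign. The threshold was 0.05 for the adjusted p of fitted values and for the exact permutation p of the marker mean and chain ratio. Single-gene calls at an unadjusted p under 0.05 are not in these counts. In CA1 PNs of the ChP arm such calls were lost in 4 (Col4a1) and 11 (Col4a2) of 16 left-out fits. In the ChN arm that of Col4a2 was lost in 2 of 11. With no filter on low counts, Col4a1 passed the correction in CA1 PNs of the ChN arm (LFC 0.70, edgeR adjusted p = 0.0487) and in CA3 PNs of the ChP arm (0.53, adjusted p = 0.0035), and Col4a2 in the latter (0.42, adjusted p = 0.041). Without the CA1 libraries that stand apart, an alternative chosen after seeing the data, Col4a1 and Col4a2 passed in CA1 PNs of the ChN arm in a fit that also had no filter (0.95 and 0.75), and Col4a2 differed between CA1 and CA3 PNs (-0.42). For Col22a1, CA1 against CA3 PNs was 2.45 in the 2N ChN mice, a value with no test since their CA1 libraries entered the choice, and CA1 PNs against DGCs no longer passed in the Ts ChP mice (-0.61). Sign changed for the diet LFC in 2N CA1 PNs with the vascular covariate (Col4a1 -0.069, Col22a1 0.22), for the Col4a2 interaction of CA1 against CA3 PNs without the replicate block (0.0035) and without the CA1 libraries that stand apart (0.16), and for the vascular mean in CA1 PNs of the ChP arm with a prior count of 0.5 (0.034). The cause was not tested. Without the replicate block the Col4a1 LFC of CA3 PNs against DGCs was 1.68, and the block changed no call past the correction.

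With each mouse left out, Col4a2 in CA3 PNs of the ChP arm ran from 0.35 to 0.50 and passed the correction without mouse 15-269 (edgeR adjusted p = 0.035), and in CA1 against CA3 PNs it ran from -0.40 to -0.17. In DGCs, Col4a2 of the ChN arm ran from -0.020 to 0.29, and Col22a1 from -0.15 to 0.25 in the ChP and from -0.0091 to 0.46 in the ChN arm. The vascular mean ran from -0.055 to 0.017 and from -0.183 to 0.023 in CA1 PNs of the ChP and ChN arm, and from -0.177 to -0.091 and from -0.039 to 0.043 in CA3 PNs, where the ChP difference passed without mouse 16-273 (exact permutation p = 0.0216) and without mouse 15-36 (p = 0.0134). The log2 ratio of the chains ran from -0.107 to 0.057 and from -0.033 to 0.268 in CA1 PNs of the ChP and ChN arm, from -0.237 to 0.056 in CA3 PNs of the ChN arm, and from -0.759 to -0.489 and from -0.065 to 0.176 in DGCs of the ChP and ChN arm. The ChP ratio in DGCs no longer passed without any 1 of the 2N mice 15-296, 15-334, 16-273 and 16-90 or the Ts mice 15-198, 15-199, 15-245, 15-36, 16-206 and 16-272.

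DESeq2 gave no adjusted p for Col22a1 in CA1 PNs of the ChP arm, and the stricter filter on counts removed the gene there. Depth limits Col22a1, of which a CA1 library of a 2N mouse held 0 to 3 counts and a CA3 library 0 to 2. It also limits the type IV chains in DGCs, where a library held 7 to 35 counts of Col4a1 and 8 to 61 of Col4a2.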
